A study of Saccharomyces cerevisiae with 18 samples.

Results

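The colony response of a yeast strain is taken here as its RNA level in colonies on solid medium minus its level in liquid medium, on the log2 scale. The strain by medium interaction is the response of KV2668 minus the response of KV473. A positive interaction means that a transcript rose more, or fell less, in KV2668 colonies than in KV473 colonies, which is the same as a KV2668 minus KV473 difference that is larger on solid than in liquid medium. It was computed from the 12 arrays, of 18 in the series, whose titles carry either strain name, 3 in each of the 4 groups KV473 liquid, KV473 solid, KV2668 liquid and KV2668 solid. The other 6 arrays hold KV63 and KV68 colonies and enter only where they are named.

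All strains are described as *Saccharomyces cerevisiae* of the Sigma1278b background, a filamentous laboratory strain that forms wrinkled colonies. The colonies were 5 days old when harvested, from YPS, a peptone medium with sucrose, at 30°C. The protocol attached to the liquid arrays repeats the colony text, which leaves the age of the liquid cultures unknown here. KV473 is labelled a deletion mutant of *FLO11*, the gene of the cell surface adhesin on which wrinkled colonies depend, and KV2668 is labelled wild type.

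The array values go against these genotype labels. *FLO11* read 13.17, 13.24 and 13.31 on the KV473 liquid arrays and 12.95, 12.76 and 13.10 on the KV473 colony arrays. On the KV2668 arrays it read 5.37, 5.34 and 5.26 in liquid and 5.12, 5.43 and 4.78 on solid medium, against an array background between 4.34 and 4.56. The groups are therefore named by strain, and the label is repeated only as a label: every interaction and strain difference below is KV2668 (labelled wild type) minus KV473 (labelled *flo11*), and every response is solid minus liquid within a strain. Had the titles been exchanged, the interactions and strain differences would change sign and the responses would swap strains. *FLO11* itself had an interaction of 0.09 (SE 0.18, limma adjusted p = 0.696), so its large strain difference was of like size in both media.

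KV473 and KV2668 differ in more than this locus. Transcripts made only in **a** cells were high in KV2668 and those made only in alpha cells were high in KV473, and the 461 tested probe sets of chromosome XII had a median KV2668 minus KV473 difference of 0.82 on solid and 0.87 in liquid medium. Label, mating type, chromosome XII level and any other difference between these strains cannot be told apart in an interaction. A difference that is the same in both media cancels in it, and the median interaction on chromosome XII was -0.02, equal to that of all probe sets.

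Yeast colonies and liquid cultures offer cells different surroundings. In a colony, oxygen, sugar and metal ions reach cells by diffusion, and cells at the surface, in the interior and against the agar live side by side in different states, whereas a shaken culture is nearly uniform. When oxygen is short, yeast switches on anaerobic wall mannoproteins, seripauperins and sterol uptake genes. When zinc is short, the activator Zap1 switches on zinc transporters, and when glucose is short, hexose transporters and mitochondrial genes are released from repression. RNA from a whole colony is a mixture, so that fewer cells of a state and less RNA per cell cannot be told apart.

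Of 5414 *S. cerevisiae* probe sets tested with limma, 229 had an interaction called higher, 4.23% of those tested, and 159 had an interaction called lower, 2.94%. A call required an adjusted p below 0.05 and a log2 difference above 1, that is a colony to liquid ratio more than doubled or halved between strains. The median interaction over all probe sets was -0.02, with 90% between -0.79 and 0.94, and the extremes were -3.61 and 3.17. The called probe sets had a median absolute interaction of 1.22 (median SE 0.14) among the higher and 1.34 (median SE 0.16) among the lower. Probe sets that may detect several genes numbered 22 of the 159 lower and 1 of the 229 higher, against 115 of 5414 tested. The lower count is therefore not of separate genes throughout. In at least 1 of 36 gene lists lay 138 of the higher and 82 of the lower calls. The lists cover 1026 of 5371 tested genes. They were chosen with earlier results of these data known, so this coverage is no result about the processes. Whether replicate arrays came from separate cultures is not stated, so the p-values measure the spread between these arrays, which may be technical.

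Called colony responses were of like number in both strains. In KV473, 608 probe sets were called higher in colonies (11.2%) and 362 lower (6.69%), and in KV2668 581 were called higher (10.7%) and 377 lower (6.96%), of which 396 were called higher and 176 lower in both strains. The lower interactions were mostly probe sets with a larger colony rise in KV473. Their median response was 2.14 in KV473 and 0.64 in KV2668, and of the 159, 74 were called higher in KV473 colonies alone and 60 in colonies of both strains. The higher interactions were of a different make: their median response was -0.55 in KV473 and 0.76 in KV2668, 67 of 229 were called higher in KV2668 colonies alone, 43 called lower in KV473 colonies alone, and 91 had no called response in either strain. These counts describe how the calls arose and are no further test of them, since the interaction is built from the same responses.

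**Figure D1:**
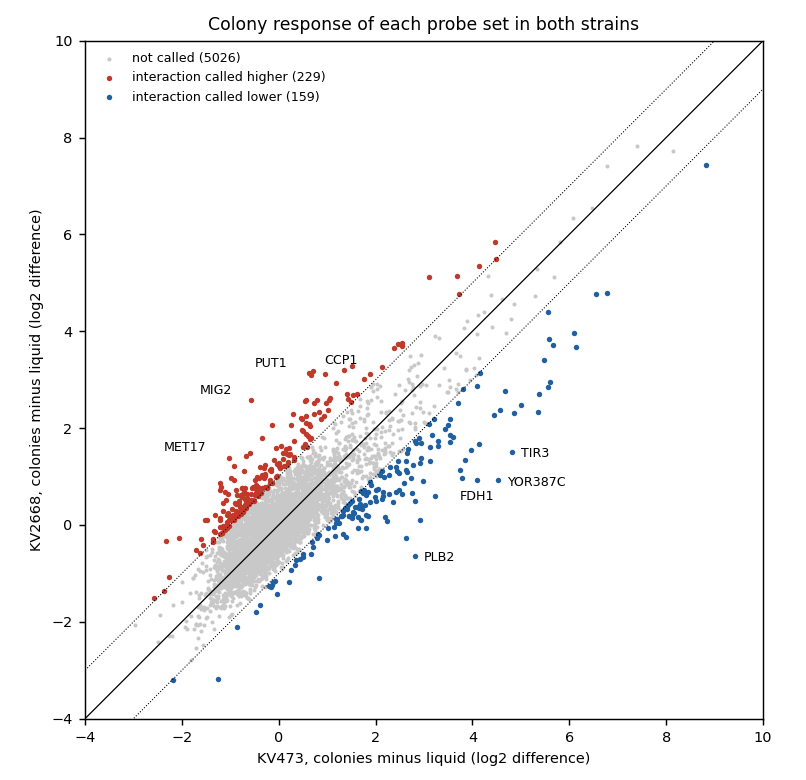
Colony minus liquid log2 difference of each of 5414 probe sets in KV473 (x axis) and KV2668 (y axis), with the line of equal response and dotted lines 1 log2 unit to each side. Red points are the 229 called higher and blue points the 159 called lower in the interaction, and the blue points spread far to the right of the line, where the KV473 rise was large.

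Among the called interactions, *MET17* was the only gene with called responses of opposite sign. It encodes the sulfhydrylase that makes homocysteine from sulfide. It read 11.60, 11.61 and 11.61 in KV473 liquid and 10.59, 10.38 and 10.73 in KV473 colonies. In KV2668 it read 11.04, 10.67 and 10.73 in liquid and 11.90, 12.49 and 12.19 in colonies. The 4 groups did not overlap except for the KV473 colony and KV2668 liquid arrays, and the response was -1.04 in KV473 and 1.38 in KV2668, an interaction of 2.42 (SE 0.19, limma adjusted p = 6.63e-07).

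An interaction can also be read as a strain difference that depends on the medium. On solid medium, 236 probe sets were called higher in KV2668 than in KV473 (4.36%) and 97 lower (1.79%), and in liquid medium 244 were called higher (4.51%) and 205 lower (3.79%). Of the 229 higher interactions, 94 (41.0%) had a called strain difference in liquid medium alone, where KV2668 was low, 59 (25.8%) had one on solid medium alone, where KV2668 was high, and 70 (30.6%) had none in either medium. Of the 159 lower interactions, 51 (32.1%) had a strain difference on solid medium alone, where KV2668 was low, 41 (25.8%) had one in liquid alone, where KV2668 was high, and 52 (32.7%) had none. For 10 genes the strain difference was called in both media with opposite sign: *FDH1*, *HMS2*, *NRG2*, *PAU23*, *PDR11*, *PLB2*, *TIR3* and *YPR015C* were higher in KV2668 in liquid and lower on solid medium, and *MIG2* and *PUT1* the reverse. The *PAU23* probe set counted here may detect several genes (interaction -2.63), and the one specific to *PAU23* was not called (-0.92). Over all tested probe sets the 3 arrays of each strain did not overlap for 62.2% on solid and 65.5% in liquid medium, and those of the media for 82.5% in KV473 and 82.2% in KV2668, which is the background for the statements on overlap below.

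Genes of zinc supply stood out among those with a larger colony rise in KV473. *ZRT1*, the high-affinity zinc transporter of the plasma membrane, read 9.13, 9.11 and 9.59 in KV473 liquid and 13.19, 12.92 and 13.06 in KV473 colonies. In KV2668 it read 8.50, 8.49 and 8.59 in liquid and 9.96, 9.30 and 9.22 in colonies. The KV473 colonies lay far above every other group, whereas KV2668 colonies only reached the range of KV473 liquid. The response was 3.78 in KV473 and 0.97 in KV2668 and the interaction was -2.81 (SE 0.24, adjusted p = 1.18e-06), a 7.03-fold smaller colony to liquid ratio in KV2668.

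*ZPS1*, which encodes a secreted protein induced by low zinc, started from overlapping liquid levels in both strains, 8.77, 8.78 and 8.95 in KV473 and 8.83, 8.87 and 8.85 in KV2668. Its colony values were 12.62, 12.71 and 12.71 in KV473 and 10.31, 10.05 and 10.22 in KV2668. The strains overlapped in liquid and separated on solid medium, with an interaction of -2.51 (SE 0.10, adjusted p = 9.94e-09). The alcohol dehydrogenase *ADH4*, also under Zap1, followed this course without a called rise in KV2668: 9.32, 9.40 and 9.62 became 11.41, 11.94 and 11.67 in KV473 colonies, while 9.27, 9.33 and 9.24 became 9.31, 9.37 and 9.40 in KV2668. Its interaction was -2.14 (SE 0.16, adjusted p = 4.37e-07).

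*YOR387C*, a gene of unknown function induced by low zinc, had the lowest interaction of all. It read 4.65, 4.20 and 4.62 in KV473 liquid and 8.61, 9.39 and 9.06 in KV473 colonies, and 4.67, 4.33 and 4.64 in KV2668 liquid and 5.63, 5.35 and 5.41 in KV2668 colonies. Both liquid groups sat at the background, which 2 of 3 arrays of each exceeded, and only KV473 colonies were far from it. The interaction was -3.61 (SE 0.24, adjusted p = 2.64e-07), and -3.53 with values under the background set to the background.

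Of the 16 zinc-responsive genes tested, 7 had a called lower interaction and 1, the autophagy gene *ATG41*, a called higher one (1.40). The remaining called members were *FET4*, a low-affinity metal transporter (-1.56), and the membrane proteins *IZH1* (-1.06) and *IZH2* (-1.71); *ATG41*, *IZH1* and *IZH2* are named after their values were seen. The list had a median interaction of -0.91, with 15 of 16 members below 0. In KV473 colonies 11 members were called higher and in KV2668 colonies 6. The median KV2668 minus KV473 difference was -0.74 on solid medium and 0.08 in liquid.

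Thiamine genes showed the same course. *THI73*, a putative carboxylate permease under thiamine control, read 7.24, 7.22 and 7.27 in KV473 liquid and 10.82, 10.67 and 10.85 in KV473 colonies, against 7.92, 7.70 and 7.53 and then 10.06, 9.20 and 9.48 in KV2668. It rose in both strains, but by 3.54 in KV473 and 1.86 in KV2668, so that the strain with the lower liquid level had the higher colony level (interaction -1.68, SE 0.23, adjusted p = 4.89e-05). *THI2*, the transcriptional activator of the pathway, rose by 2.13 in KV473, while its difference of 0.54 in KV2668 was not called (interaction -1.59, adjusted p = 3.28e-06). *PET18*, also under thiamine control, had an interaction of -1.51, and the thiazole synthase gene *THI4* one of -1.52 with a wide spread (SE 0.44, adjusted p = 0.0105).

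Among 15 thiamine genes tested, of 22 listed, 6 had a called lower interaction and 0 a higher one, with a median of -0.85 and 14 of 15 below 0. KV473 colonies had 9 of the 15 called higher and KV2668 colonies 2. No member differed by call between the strains in liquid medium, and 5 were lower in KV2668 on solid medium. *THI4* lost its call when the variance was estimated from all 18 arrays (adjusted p = 0.141).

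Anaerobic and hypoxic genes formed the third group with a larger rise in KV473 colonies, but here KV2668 colonies rose strongly too. *TIR1*, *TIR2* and *TIR3* encode mannoproteins that replace aerobic wall proteins when oxygen is short. *TIR3* read 8.15, 8.18 and 8.33 in KV473 liquid and 12.81, 13.32 and 12.98 in KV473 colonies. In KV2668 it was already at 10.18, 10.58 and 10.51 in liquid and reached 12.28, 11.58 and 11.94 in colonies. Liquid KV2668 lay above liquid KV473 and KV2668 colonies lay below KV473 colonies, with no overlap in either medium, and the response was 4.82 in KV473 and 1.51 in KV2668 (interaction -3.31, SE 0.23, adjusted p = 3.2e-07). *TIR2* read 6.62, 6.49 and 6.72 and then 11.29, 11.72 and 11.39 in KV473, and 7.47, 7.51 and 7.19 and then 9.96, 9.38 and 9.80 in KV2668 (interaction -2.54, SE 0.20). *TIR1* rose by 6.78 in KV473 and 4.78 in KV2668 (SE of the interaction 0.13, adjusted p = 2.16e-07).

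Sterol uptake and its regulator moved the same way. *PDR11*, an ABC transporter that imports sterol in anaerobic cells, read 7.76, 7.77 and 7.99 in KV473 liquid and 10.56, 10.66 and 10.54 in colonies, against 8.83, 9.01 and 8.86 and then 9.81, 9.39 and 9.48 in KV2668. All 4 groups were apart, and the interaction was -2.09 (SE 0.14, adjusted p = 2.64e-07). *UPC2*, the activator of anaerobic sterol uptake, had overlapping liquid levels in both strains, 7.44, 7.70 and 7.70 in KV473 and 7.59, 7.58 and 7.55 in KV2668. Its colony values were 11.06, 11.33 and 10.91 in KV473 and 9.76, 9.52 and 9.65 in KV2668, an interaction of -1.42 (SE 0.14, adjusted p = 4.83e-06). *SET4*, a SET-domain gene induced when oxygen is short, read 4.62, 5.06 and 5.02 and then 9.65, 10.51 and 9.54 in KV473, and 5.59, 5.66 and 5.68 and then 8.40, 7.97 and 7.97 in KV2668. It rose strongly in both strains, by 5.00 and 2.47, with an interaction of -2.53 (SE 0.29, adjusted p = 1.32e-05).

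The seripauperins are small cell wall proteins of a large subtelomeric family. *PAU5*, whose probe set is specific to it, read 8.07, 8.04 and 8.14 in KV473 liquid and 13.49, 13.87 and 13.56 in KV473 colonies, and 8.36, 8.50 and 8.28 in KV2668 liquid and 11.68, 10.86 and 11.15 in KV2668 colonies. The media were far apart in both strains, and the strains were much closer in liquid than in colonies (interaction -2.71, SE 0.22, adjusted p = 9.96e-07). *PAU2* (-2.60), *PAU7* (-2.67) and *PAU18* (-1.81) had lower interactions as well, from probe sets that may detect several genes of the family.

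In the list of 18 anaerobic and hypoxic genes, 7 had a called lower interaction and 0 a higher one (median -0.73), with 14 called higher in KV473 colonies and 11 in KV2668 colonies. Of 13 seripauperins, 7 were called lower and 0 higher (median -1.11, 13 of 13 below 0), with 12 called higher in colonies of each strain. Probe sets of 10 of these 13 may detect several genes, so that their counts are not of separate genes. These calls depended on the estimate of spread: with the variance taken from all 18 arrays in 6 groups, the called count fell from 7 to 0 in the hypoxic list and from 7 to 1 among the seripauperins, and *TIR3*, *TIR2*, *PDR11* and *SET4* had adjusted p-values of 0.0659, 0.0559, 0.0597 and 0.15. With the third KV68 colony array, which stood apart from its replicates, left out, both counts were 7 again. None of the added arrays enters the interaction itself, and the estimates were the same in these fits.

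**Figure D2:**
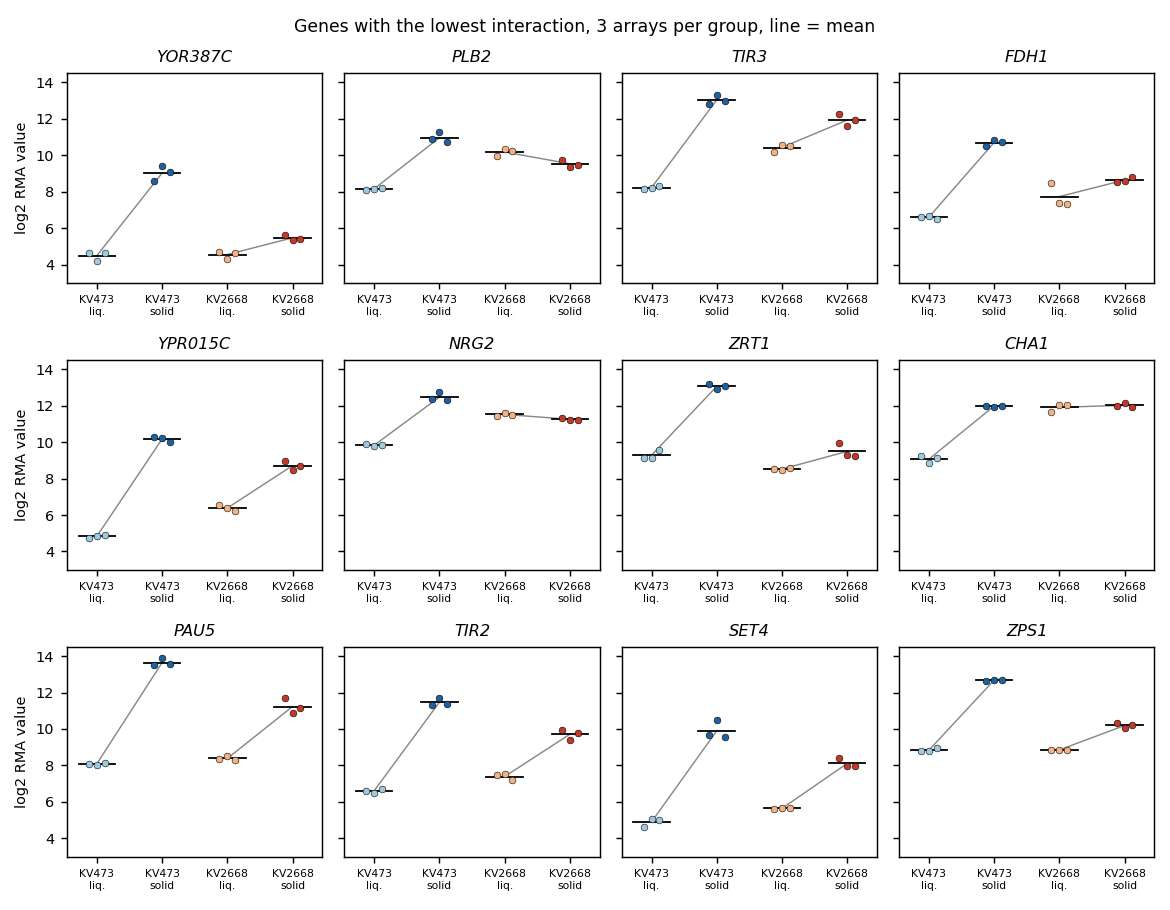
Log2 RMA values on the 12 arrays for the 12 genes with the lowest called interaction among probe sets specific to 1 gene, 3 points per group with the mean as a bar and grey lines joining liquid to solid medium of a strain. The KV473 line is steeper than the KV2668 line in every panel, and for *PLB2* and *NRG2* the KV2668 line slopes slightly down.

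The remaining genes with the lowest interactions belonged to several processes. *PLB2*, a phospholipase B gene, read 8.10, 8.15 and 8.22 in KV473 liquid and 10.87, 11.27 and 10.75 in colonies, but 9.96, 10.35 and 10.22 in KV2668 liquid and 9.73, 9.37 and 9.49 in colonies. The order of the strains turned between media, with an interaction of -3.45 (SE 0.19, adjusted p = 4.5e-08). *FDH1*, formate dehydrogenase, read 6.63, 6.67 and 6.49 and then 10.53, 10.84 and 10.72 in KV473. In KV2668 its liquid arrays were uneven, at 8.46, 7.39 and 7.34, and its colony arrays read 8.54, 8.59 and 8.80. The interaction was -3.18 (SE 0.31, adjusted p = 3.48e-06). *YPR015C*, a putative zinc-finger gene, rose from 4.73, 4.86 and 4.89 to 10.26, 10.25 and 10.02 in KV473 and from 6.53, 6.36 and 6.24 to 8.96, 8.48 and 8.69 in KV2668 (interaction -3.02, SE 0.16).

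Regulators of *FLO11* were among the genes whose strain order turned. *NRG2* encodes a repressor that acts in glucose repression and on *FLO11*. It read 9.89, 9.78 and 9.83 in KV473 liquid and 12.37, 12.74 and 12.30 in KV473 colonies, and 11.45, 11.61 and 11.51 in KV2668 liquid and 11.33, 11.20 and 11.22 in KV2668 colonies. It rose by 2.64 in KV473, while its KV2668 difference of -0.27 was not called (interaction -2.90, SE 0.14, adjusted p = 2.32e-08). *HMS2*, a gene related to heat shock factor that promotes pseudohyphal growth, read 5.48, 5.38 and 5.63 and then 9.76, 9.63 and 9.54 in KV473, and 6.42, 6.77 and 6.55 and then 8.53, 8.06 and 8.16 in KV2668 (interaction -2.48, SE 0.17). *RPI1* (-1.12) and *HMS1* (-1.16) completed the 4 called members of the 22 tested flocculins and *FLO11* regulators, whose median interaction was 0.13, and 0 members were called higher. The *HMS1* call was lost with values under the background set to the background (-0.87), and the called count fell to 2 without KV473 solid replicate 2. Members called higher numbered 1 without KV2668 solid replicate 1 or without KV473 liquid replicate 2, and 2 after quantile normalization. With the variance of all 18 arrays, *HMS1*, *HMS2* and *RPI1* were not called.

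The DNA damage genes *HUG1* and *RNR3* rose steeply in both strains and again more in KV473. *HUG1*, an inhibitor of ribonucleotide reductase, read 6.90, 6.54 and 7.11 in KV473 liquid and 12.84, 13.26 and 12.86 in colonies, and 8.21, 6.91 and 7.27 in KV2668 liquid and 11.45, 10.81 and 11.16 in colonies. *RNR3*, the damage-induced large subunit of that enzyme, read 6.97, 6.77 and 7.18 and then 12.49, 12.72 and 12.67 in KV473, and 7.73, 7.64 and 7.51 and then 11.55, 11.20 and 11.29 in KV2668. Both genes separated the strains on solid medium, with interactions of -2.46 (SE 0.38, adjusted p = 0.000132) and -1.94 (SE 0.16, adjusted p = 9.86e-07). Of 18 genes listed and tested, 4 were called lower and 0 higher, the other called members being *DDR48* (-1.41) and *PLM2* (-1.14), and the median was -0.23. The *PLM2* call was lost after quantile normalization.

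A further set of lower interactions came from liquid medium, where KV2668 was already high. *CHA1*, the catabolic serine and threonine deaminase, read 9.23, 8.83 and 9.12 in KV473 liquid, against 11.65, 12.04 and 12.04 in KV2668 liquid. The colony values had a mean of 11.98 (SD 0.03, n = 3) in KV473 and were 11.99, 12.12 and 11.95 in KV2668. The strains overlapped in colonies, and 3 of the 4 groups shared 1 level, with liquid KV473 apart from it (interaction -2.81, SE 0.16, adjusted p = 5.42e-08). *IMA1*, an isomaltase, behaved alike, at 6.57, 6.53 and 6.33 in KV473 liquid, 8.38, 8.76 and 8.61 in KV2668 liquid, and 9.18, 9.53 and 9.15 and 9.43, 8.86 and 8.93 in the colonies of KV473 and KV2668. Its interaction was -2.33 (SE 0.21), the only call among 8 maltose and isomaltose genes tested, where a further 1 was called without KV2668 solid replicate 1.

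Glycolytic genes gave further cases of this kind. *CDC19*, pyruvate kinase, read 11.07, 11.30 and 11.32 in KV473 liquid and 12.74, 12.95 and 12.83 in KV2668 liquid, but 14.10, 14.27 and 14.12 and 14.26, 14.20 and 14.21 in the colonies. The strains overlapped only in colonies (interaction -1.55, SE 0.11, adjusted p = 3.94e-07). *GPM1*, phosphoglycerate mutase, had an interaction of -1.22, its homologue *GPM2* one of -2.07, and the enolase-related *ERR3*, whose probe set may detect several genes, one of -2.19. These were the 4 called of 18 glycolytic genes tested, with 0 called higher and a median of -0.55, and all 4 differed between the strains in liquid medium alone. The count was 7 without KV2668 solid replicate 1 or without KV473 liquid replicate 2, and 1 member was called higher without KV2668 liquid replicate 2 or 3, KV2668 solid replicate 1, KV473 liquid replicate 2 or KV473 solid replicate 2.

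Storage carbohydrate and wall genes had fewer calls, in part of the same kind. Of 20 glycogen and trehalose genes, 3 were called lower and 0 higher (median -0.54), led by *GPH1*, glycogen phosphorylase (-1.35), then *PGM2*, phosphoglucomutase (-1.09), and *PIG2*, a regulatory subunit (-1.03), and 1 call was left without KV473 solid replicate 2. Of 28 cell wall and cell separation genes, 5 were called lower and 1 higher (median -0.18). *CTS1*, the chitinase that separates daughter from mother cells, read 8.22, 8.06 and 8.19 and then 10.51, 10.63 and 10.39 in KV473, and 10.94, 11.36 and 11.16 and then 11.56, 11.68 and 11.62 in KV2668. KV2668 was above KV473 in both media and by less in colonies (interaction -1.89, SE 0.14). *CTS1* lies on chromosome XII, whose median KV2668 minus KV473 difference was 0.82 on solid and 0.87 in liquid medium. *HPF1*, a wall mannoprotein gene, fell in colonies of both strains and by more in KV2668 (response -1.27 and -3.19, interaction -1.92).

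Sterol synthesis completed the lower interactions. Of 31 genes tested, 7 were called lower and 0 higher, the median was -0.60 and 29 of 31 lay below 0. *YEH1*, a steryl ester hydrolase, read 8.38, 8.47 and 8.53 in KV473 liquid and 10.26, 10.36 and 10.17 in its colonies, while all KV2668 arrays lay between 10.07 and 10.40 (interaction -1.87, SE 0.12). *ERG25*, a methyl sterol oxidase, rose by 1.00 in KV473 and had an uncalled difference of -0.32 in KV2668 (interaction -1.32, SE 0.09), and *ERG24*, a sterol reductase, an interaction of -1.27.

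The largest group among the higher interactions was mitochondrial, and most of it came from liquid medium, where KV2668 was low. *CCP1*, cytochrome c peroxidase, read 11.82, 11.85 and 11.95 in KV473 liquid and 9.92, 9.41 and 9.50 in KV2668 liquid. In colonies it read 12.60, 12.54 and 12.60 in KV473 and 12.89, 12.66 and 12.80 in KV2668. The strains were far apart in liquid and close, though without overlap, on solid medium, and the response was 0.71 in KV473 and 3.17 in KV2668 (interaction 2.47, SE 0.15, adjusted p = 1.37e-07). *COA2*, an assembly factor of cytochrome oxidase, read 11.25, 11.05 and 11.18 and then 12.25, 12.06 and 12.05 in KV473, against 9.40, 8.75 and 8.94 and then 12.22, 12.09 and 12.12 in KV2668. Its colony groups overlapped (interaction 2.15, SE 0.18, adjusted p = 1.16e-06).

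Of 103 genes of the mitochondrial ribosome and mitochondrial translation, 48 had a called higher interaction and 0 a lower one, beside 4.23% and 2.94% of all probe sets. The called count was 38 without KV2668 liquid replicate 2 and 59 without KV2668 liquid replicate 1. The median interaction of the list was 0.98 and 100 of 103 members lay above 0. The strain difference was in liquid medium: 65 members were called lower in KV2668 there and 0 on solid medium, where 3 were called higher, and of the 48 called, 40 differed between strains in liquid alone. The median KV2668 minus KV473 difference was -1.10 in liquid and -0.15 on solid medium. The median response was -0.67 in KV473 and 0.26 in KV2668, with 14 members called lower in KV473 colonies and 0 in KV2668 colonies.

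*IFM1*, the mitochondrial translation initiation factor, had the highest interaction of this list. It read 9.15, 9.24 and 9.10 in KV473 liquid and 7.77, 7.37 and 7.53 in KV2668 liquid, and 8.04, 8.12 and 8.18 and 8.08, 8.32 and 8.18 in the colonies of the 2 strains. The colony groups overlapped, since KV473 fell and the 0.64 of KV2668 was upward without a call (interaction 1.69, SE 0.13, adjusted p = 7.24e-07). *MTO1*, a tRNA modification gene (1.58), *MEF1*, an elongation factor (1.45), and *CBP3*, which acts on cytochrome *b* synthesis (1.39), followed.

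Factors that assemble the respiratory complexes had 15 called higher of 35, 0 lower, and a median of 0.92, and 13 of the 15 differed in liquid alone. *PET100*, a chaperone of cytochrome oxidase, read 10.36, 10.33 and 10.29 in KV473 liquid against 8.62, 8.53 and 8.47 in KV2668 liquid, and 10.78, 10.88 and 10.73 against 10.61, 10.48 and 10.39 in colonies (interaction 1.49, SE 0.10). Mitochondrial protein import and chaperones had 7 called higher of 35, 0 lower, and a median of 0.85, with the chaperones *HSP78* (1.77), *MDJ1* (1.64) and *SSC1* (1.31) in front, and 12 were called without KV2668 liquid replicate 1.

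The respiratory complexes themselves moved less than their assembly factors. Of 25 respiratory chain genes, 5 were called higher and 0 lower, with a median of 0.45. *NDI1*, the internal NADH dehydrogenase, read 12.16, 12.20 and 12.20 in KV473 liquid and 10.59, 10.10 and 10.15 in KV2668 liquid, and 11.28, 11.50 and 11.50 against 11.06, 11.03 and 11.02 in colonies (interaction 1.52, SE 0.15). The others were *SDH1* (1.14), *SDH2* (1.07) and *SDH4* (1.03) of succinate dehydrogenase, which were also the 3 called of 18 citric acid cycle genes (median 0.13), and *CYT1*, cytochrome *c*1 (1.12). The *SDH2* and *SDH4* calls were lost without KV2668 liquid replicate 2 or 3, which left 3 respiratory chain genes and 1 citric acid cycle gene.

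ATP synthase stood apart from the other mitochondrial lists. Its 17 tested genes had 0 calls in either direction, a median interaction of -0.07 and a range from -0.32 to 0.30. The strain medians were -0.24 in liquid and -0.27 on solid medium, so that the list was slightly lower in KV2668 in both media alike. At an adjusted p below 0.05 with no minimum difference, *ATP5* (-0.32), *ATP7* (-0.28), *ATP18* (0.30) and *STF1* (0.29) passed limma's test with both signs.

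**Figure D3:**
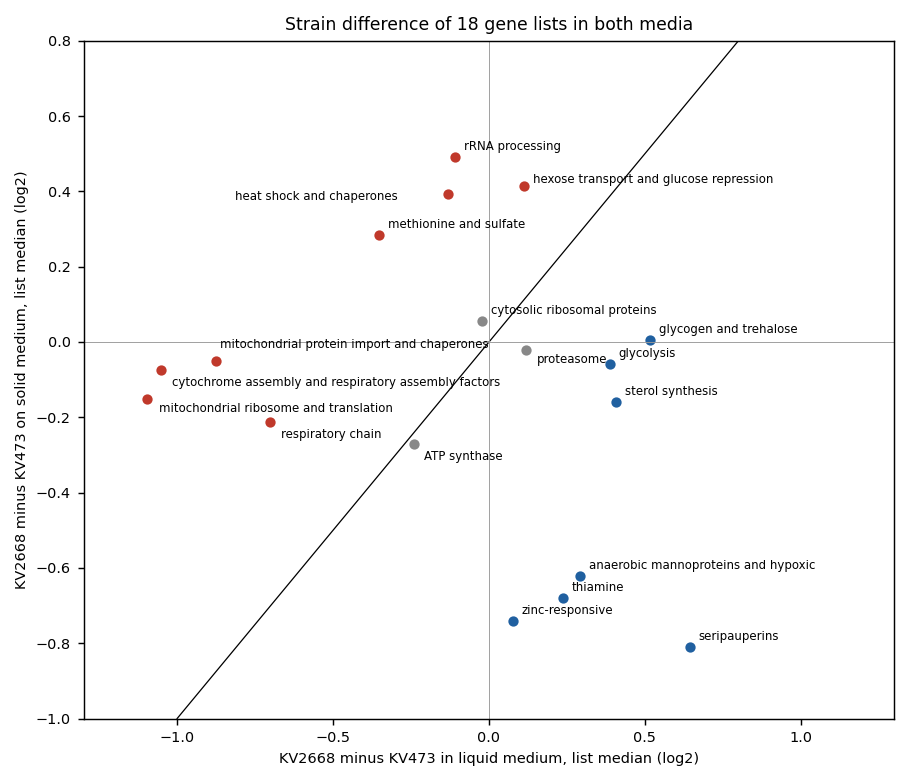
Median KV2668 minus KV473 log2 difference of 18 gene lists in liquid medium (x axis) and on solid medium (y axis), with the line of equal difference. Lists with more higher than lower calls are red, those with more lower calls blue and those with 0 calls grey; mitochondrial lists lie at the left near 0 on the y axis, while zinc, thiamine, hypoxic and seripauperin lists lie at the bottom right.

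Biosynthetic enzymes for amino acids followed the mitochondrial course in part. *LEU1*, isopropylmalate isomerase of leucine synthesis, read 10.37, 10.35 and 10.22 in KV473 liquid and 8.59, 8.53 and 8.47 in KV2668 liquid. In colonies it read 10.50, 10.70 and 10.62 in KV473 and 10.87, 10.82 and 10.76 in KV2668. The large gap in liquid became a small gap of opposite sign in colonies (interaction 1.99, SE 0.10, adjusted p = 2.32e-08). *GLT1*, glutamate synthase, read 10.68, 10.68 and 10.83 against 8.93, 8.55 and 8.52 in liquid, and 11.32, 11.17 and 11.34 against 11.31, 11.15 and 11.24 in colonies (interaction 2.02, SE 0.14). *ILV3* of isoleucine and valine synthesis (1.13) and *LYS4* of lysine synthesis (1.24) had the same pattern. Among the lists, 2 of 13 leucine, isoleucine and valine genes were called higher and 0 lower (median 0.31), beside 4.23% and 2.94% of all probe sets. Of 18 lysine and glutamate genes, 3 were called higher and 0 lower. They were *GLT1*, *LYS4* and *UGA2* (1.59), succinate semialdehyde dehydrogenase. That list as a whole did not follow, with a median of -0.12 and 10 of 18 members below 0.

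A peptide transporter and glycine genes showed large gaps in liquid medium. *PTR2*, the transporter of di- and tripeptides, read 11.25, 11.15 and 11.22 in KV473 liquid and 10.90, 11.22 and 11.05 in KV473 colonies, against 7.88, 8.07 and 8.25 in KV2668 liquid and 9.68, 10.44 and 10.24 in KV2668 colonies. KV473 overlapped between media, and KV2668 was below it in both (interaction 2.20, SE 0.22, adjusted p = 4.44e-06). *GCV2* of the glycine cleavage complex read 12.11 on all 3 KV473 liquid arrays and 11.09, 11.02 and 11.28 in KV473 colonies, and 8.84, 9.16 and 9.10 and then 9.87, 10.16 and 9.96 in KV2668. The strains approached each other from both sides, and neither response passed the minimum difference (interaction 1.94, SE 0.14, adjusted p = 2.91e-07). *GCV1* (1.27) and *SHM2*, serine hydroxymethyltransferase (1.42), were also among the 4 higher and 1 lower calls in 17 glycine and 1-carbon genes, the lower call being *CHA1*.

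In a second set of higher interactions KV2668 was high on solid medium. *MIG2*, a repressor induced by glucose, had the highest interaction of all and differed between strains in both media (-1.81 in liquid, 1.37 on solid). It read 8.10, 7.99 and 8.31 in KV473 liquid and 7.71, 7.05 and 7.90 in KV473 colonies, and 6.51, 6.32 and 6.16 in KV2668 liquid and 8.93, 8.53 and 9.30 in KV2668 colonies. KV2668 was below KV473 in liquid and above it in colonies, with no overlap in either medium. It rose by 2.59 in KV2668, the KV473 difference of -0.58 was not called, and the interaction was 3.17 (SE 0.29, adjusted p = 2.24e-06), a 9.01-fold difference of the colony to liquid ratios.

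Hexose transporters gave a similar picture on solid medium. *HXT2*, a high-affinity transporter, had overlapping liquid levels, 12.56, 12.11 and 12.45 in KV473 and 12.37, 12.26 and 12.12 in KV2668. In colonies it read 10.18, 9.53 and 10.39 in KV473 and 11.48, 12.26 and 12.01 in KV2668. It fell by 2.34 in KV473, and KV2668 overlapped between media (interaction 2.01, SE 0.30, adjusted p = 0.000108). *HXT4* read 9.11, 8.52 and 8.72 and then 8.14, 8.08 and 8.35 in KV473, and 8.69, 8.19 and 8.33 and then 9.74, 9.97 and 9.95 in KV2668, a called rise in KV2668 alone (interaction 2.08, SE 0.21). Of 27 genes of hexose transport and glucose repression, 7 were called higher and 2 lower (median 0.24), 10 were called higher in KV2668 on solid medium and 2 in liquid. *HXT13* was among the 2 lower (-1.65, and -1.37 with values under background raised to it, since no liquid array exceeded background), and 1 lower call was left without KV473 solid replicate 2.

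Proline and arginine genes were split, with 4 called higher and 1 lower of 17. *PUT1*, the mitochondrial proline oxidase, read 11.34, 11.46 and 11.45 in KV473 liquid and 11.96, 12.07 and 12.06 in colonies, and 10.10, 10.48 and 10.45 in KV2668 liquid and 13.32, 13.67 and 13.48 in colonies. The strains turned their order between media without overlap (interaction 2.53, SE 0.15, adjusted p = 7.09e-08). *CAR2*, ornithine transaminase of arginine breakdown, fell by 1.20 in KV473 and had an uncalled difference of 0.79 in KV2668 (interaction 1.98, SE 0.10). *ARG3*, ornithine carbamoyltransferase of arginine synthesis, went the other way, from 8.96, 8.91 and 8.94 to 11.25, 10.94 and 11.18 in KV473 and from 9.99, 10.07 and 10.05 to 10.15, 10.28 and 10.18 in KV2668 (interaction -2.02, SE 0.11), while *ARG4* of the same pathway had an interaction of 1.33. *PUT1*, *CAR2*, *MET17* and *SAM1* lie on chromosome XII, whose median was higher in KV2668 in both media, and their calls held with the chromosomes centred. The same is true of *CTS1*, *YEH1*, *THI73*, *MEF1*, *SHM2*, *CRR1*, *AFB1* and *PAU18*. *SDH2* lies there too, and its call was lost in that fit.

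Methionine and sulfate genes had 11 called higher of 32, 0 lower, and a median interaction of 0.78, with 26 of 32 above 0. KV2668 colonies had 16 members called higher and KV473 colonies 5. Besides *MET17*, *SAM1*, which makes S-adenosylmethionine, read 10.90, 10.88 and 10.79 and then 10.01, 9.63 and 10.17 in KV473, and 10.66, 10.38 and 10.33 and then 11.42, 11.83 and 11.73 in KV2668. KV473 colonies were the lowest group and KV2668 colonies the highest (interaction 2.13, SE 0.19, adjusted p = 1.75e-06). *MUP1*, the high-affinity methionine permease, read 9.80, 9.81 and 9.85 and then 10.20, 10.34 and 10.28 in KV473, and 8.44, 8.42 and 8.22 and then 10.21, 10.87 and 10.64 in KV2668 (interaction 1.76, SE 0.18), and *MET6*, methionine synthase, had an interaction of 1.55.

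Several transporters and genes outside the lists completed the highest interactions. *MCH5*, a riboflavin transporter, had values between 7.28 and 7.88 in both liquid groups and in KV473 colonies, and read 8.86, 9.41 and 9.23 in KV2668 colonies (interaction 2.13, SE 0.16). *PHO89*, a sodium phosphate cotransporter, fell by 1.22 in KV473, from 11.02, 10.43 and 10.61 to 9.51, 9.43 and 9.46, and read 9.31, 9.16 and 9.01 and then 9.57, 10.40 and 10.11 in KV2668 (interaction 2.09, SE 0.25). *YNL234W*, which encodes a haem-binding globin-like protein, read 6.41, 5.78 and 6.44 and then 5.52, 5.20 and 5.85 in KV473, and 7.64, 7.41 and 7.54 and then a mean of 8.95 (SD 0.08, n = 3) in KV2668 colonies (interaction 2.10, SE 0.24). *YBL100W-C* exceeded the background in KV2668 colonies alone, at 6.87, 6.65 and 6.44, so that its interaction of 2.44 is better given as 2.31 with the other groups set to the background.

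**Figure D4:**
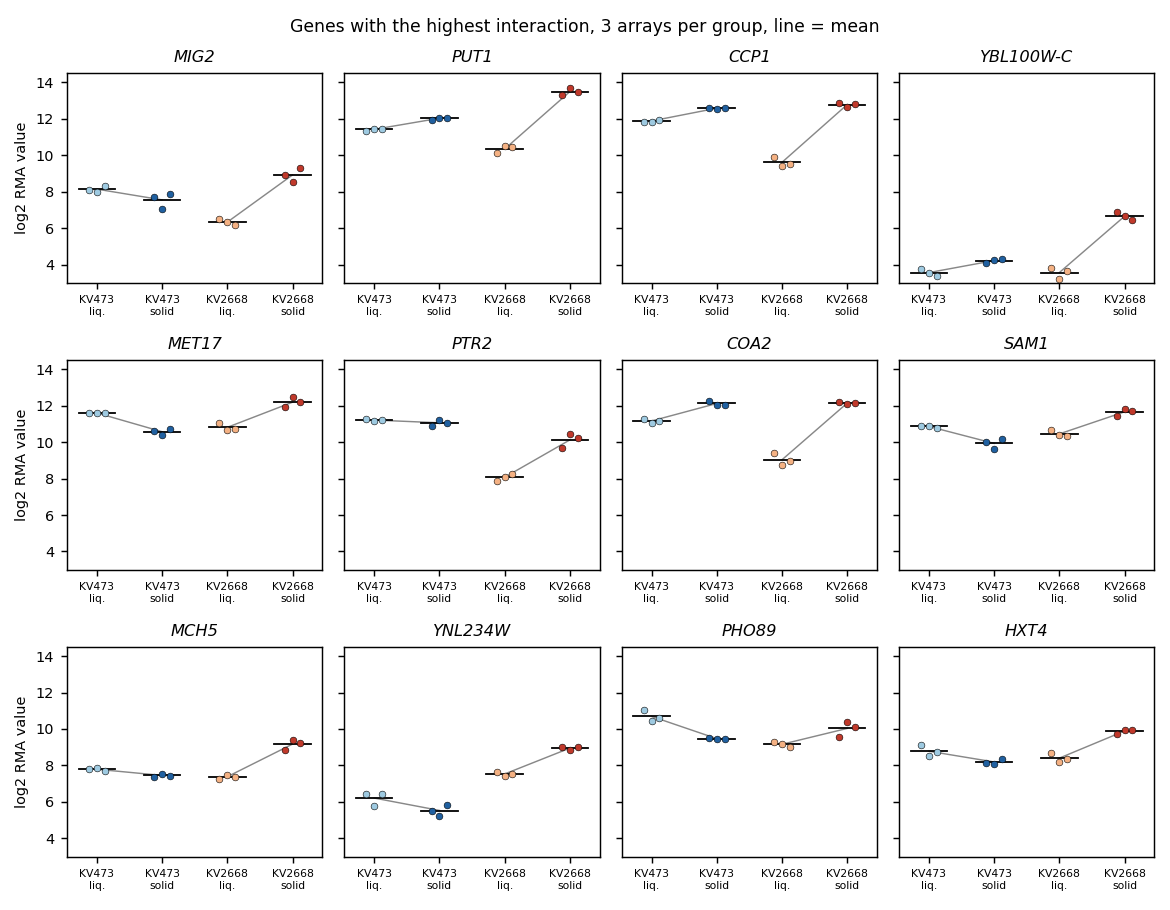
Log2 RMA values on the 12 arrays for the 12 genes with the highest called interaction, chosen and drawn as for the lowest. KV2668 rises from liquid to solid medium in every panel, while KV473 rises by less or falls, and *CCP1* and *COA2* reach nearly the same colony level in both strains.

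In colonies, 3 of 27 heat shock and chaperone genes and 12 of 74 rRNA processing genes had a called KV2668 minus KV473 difference above 0, beside 4.36% of all probe sets. Of the tested members, 4 and 10 lie on chromosome XII, whose median difference was 0.82 on solid medium. How far this level adds to the counts was not tested. *SSA3*, a stress-induced Hsp70 gene, rose from 8.25, 8.29 and 8.50 to 12.85, 12.87 and 12.70 in KV473 and from 8.50, 8.33 and 8.32 to 14.10, 14.31 and 14.23 in KV2668. The strains overlapped in liquid alone (interaction 1.38, SE 0.12, adjusted p = 1.38e-06). *BTN2*, a protein-sorting chaperone gene, read 11.57, 11.34 and 11.49 and then 12.86, 12.74 and 12.87 in KV473, and 10.42, 10.46 and 10.49 and then 13.53, 13.80 and 13.66 in KV2668 (interaction 1.85, SE 0.11). Of 27 heat shock and chaperone genes, 8 were called higher and 0 lower (median 0.54), with 11 called higher in KV473 colonies and 16 in KV2668 colonies.

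Of 74 rRNA processing genes, 8 were called higher and 0 lower, but 73 of 74 lay above 0 and the median was 0.59. In KV473 colonies 17 were called lower, in KV2668 colonies 0, and the strain medians were -0.11 in liquid and 0.49 on solid medium. *ZPR1*, a chaperone of translation elongation factor 1A, led the list with 1.42, followed by *SSF1* (1.22), *DBP8* (1.13) and *SPB1* (1.12) of ribosomal subunit assembly. The count of 8 was unsteady, at 4 without KV473 solid replicate 1 and 5 without KV2668 solid replicate 2. By contrast, the 129 cytosolic ribosomal protein genes had 0 calls and a median of 0.08, with 1 call without KV473 liquid replicate 3, and the 34 proteasome genes had 0 calls and a median of -0.09. Glyoxylate cycle and gluconeogenesis genes also had 0 calls among 16 (median -0.09).

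**Figure D5:**
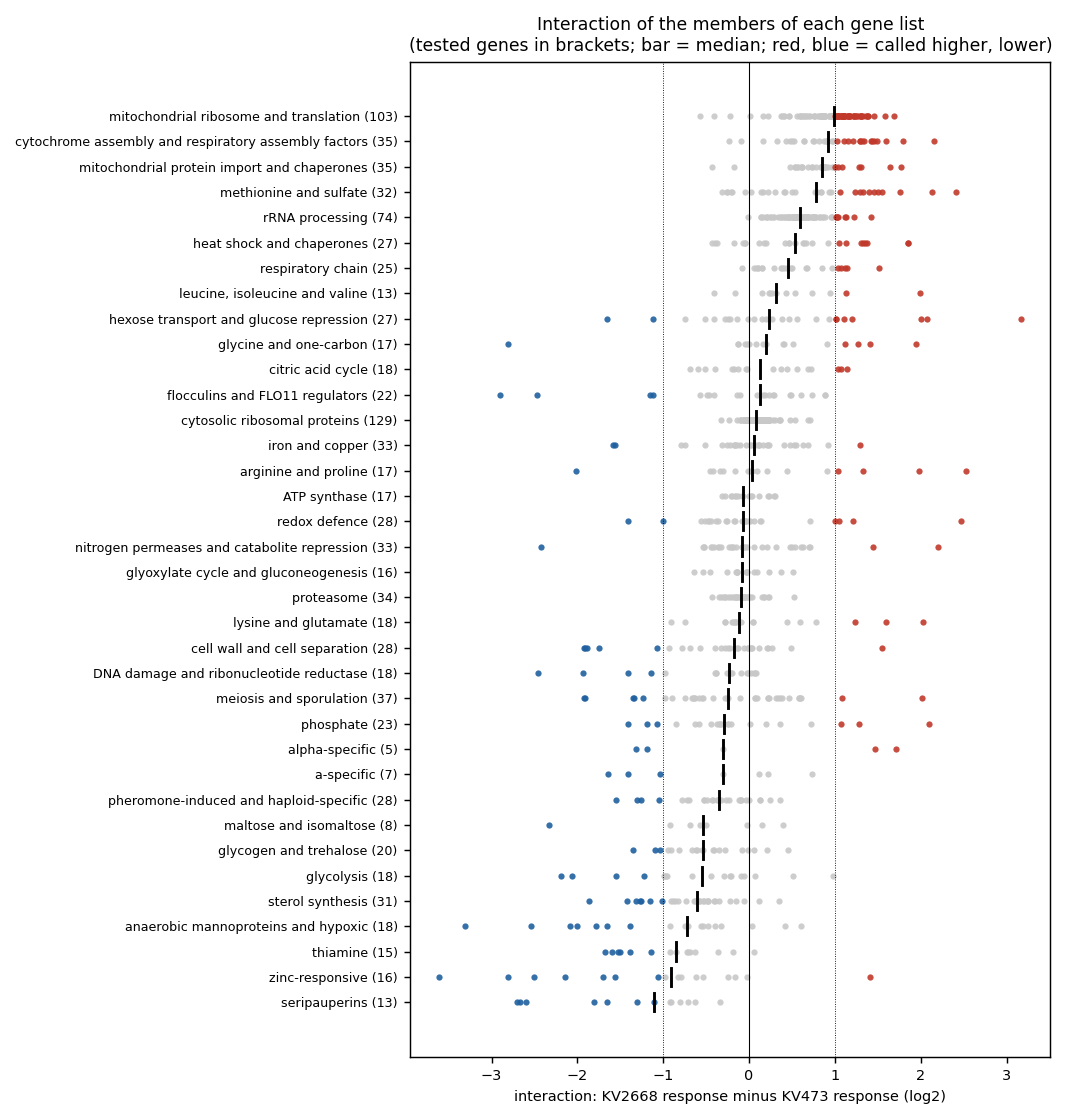
Interaction of each tested gene in the 36 gene lists, ordered by the list median (black bar), with dotted lines at -1 and 1. Red and blue points are called higher and lower; the 103 mitochondrial translation genes lie at the top with a median of 0.98 and the 13 seripauperins at the bottom with -1.11.

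In several lists the calls went both ways, beside 4.23% called higher and 2.94% called lower of all probe sets. Nitrogen permeases and catabolite repression had 2 higher, *PTR2* and the general amino acid permease *GAP1* (1.44), and 1 lower of 33. The *GAP1* call was lost with the variance of all 18 arrays (adjusted p = 0.137), which left 1 higher. The lower was the repressor *DAL80* (-2.42, and -2.14 against the background), which no liquid array exceeded. Phosphate genes had 3 higher and 3 lower of 23, the acid phosphatases *PHO5* (-1.19) and *PHO11* (-1.41) against *PHO89* and *PHM7* (1.28). The *PHO11* probe set may detect several genes. Iron and copper genes had 1 higher, *CTH1* (1.29), and 2 lower, *FET4* and the reductase *FRE4* (-1.58), of 33, and 2 higher without KV2668 solid replicate 1 or KV473 solid replicate 2.

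Redox defence genes had 4 higher and 2 lower of 28, with *CCP1*, the catalase *CTT1* (1.21) and *GRE2* (1.05) against *OYE2* (-1.41). The higher count was 2 without KV2668 liquid replicate 2, KV2668 solid replicate 3 or KV473 solid replicate 2, and in these fits, or without KV2668 liquid replicate 1, KV2668 solid replicate 2 or KV473 liquid replicate 1 or 2, the lower count was 1. Meiosis and sporulation genes had 2 higher and 5 lower of 37, beside 4.23% and 2.94% of all probe sets. The higher were led by *YNL194C* (2.01) and the lower by *SPO19* (-1.92) and *CRR1* (-1.91). *SPO19* exceeded the background on 1 of 3 KV2668 colony arrays. Its interaction was -1.75, still called, once low readings were raised to the background. The higher count of this list was 1 without KV2668 liquid replicate 2, KV2668 solid replicate 2 or KV473 solid replicate 2.

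Genes of mating type differed between strains in both media, and some also in the interaction. All 7 **a**-specific genes were called higher in KV2668 and all 5 alpha-specific genes lower in KV2668, in each medium. *STE2*, the receptor for alpha factor, read 6.51, 6.51 and 6.89 in KV473 liquid and 8.85, 7.15 and 8.10 in KV473 colonies, and 10.81, 11.00 and 11.01 and then 10.87, 10.52 and 10.68 in KV2668. The KV473 colony arrays scattered widely, above liquid KV473 and below KV2668 (interaction -1.64, SE 0.41, adjusted p = 0.00443). The **a**-factor gene *MFA2* scattered in the same arrays, at 8.99, 7.16 and 8.01 (interaction -1.41, SE 0.47). With *STE6* (-1.04) these were the 3 called lower of 7, but 1 was left without KV2668 solid replicate 2, 1 was called higher without KV473 solid replicate 1, and the list median of -0.30 turned to 0.20 after quantile normalization.

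Alpha-specific genes had 2 higher, *MF(ALPHA)1* (1.72, and 1.33 with KV2668 liquid raised to the background) and *AFB1* (1.47), and 2 lower, *MF(ALPHA)2* (-1.32) and *SAG1* (-1.19). Pheromone-induced and haploid-specific genes had 4 lower of 28, *PRM6* (-1.55), *FUS2* (-1.31), *FIG1* (-1.25) and *STE4* (-1.05), and 0 higher (median -0.35). With the variance of all 18 arrays the calls of *STE2*, *MFA2*, *STE6*, *MF(ALPHA)2* and *SAG1* were lost.

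Colonies of KV63, labelled *flo11*, and KV68, labelled wild type, allow the strain difference on solid medium to be set beside another pair with the same labels. *FLO11* had a KV68 minus KV63 difference of -8.21, so that the arrays labelled *flo11* had the higher level in this pair too. Between these colonies 12 probe sets were called higher in KV68 and 12 lower, 0.222% of those tested each, in the fit of 18 arrays. Without the third KV68 array 19 were called higher and 18 lower. No liquid arrays of this pair exist among those analysed here, so its interaction cannot be estimated. The error in that fit is shared with KV473 and KV2668, but the arrays compared are others.

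Of the 51 lower interactions with a strain difference on solid medium alone, 7 were also called lower in KV68 colonies and 0 higher. They were *YOR387C* (KV68 minus KV63 of -3.21), *ZPS1* (-2.50), *ZRT1* (-2.44), *THI4* (-1.72), *ADH4* (-1.71), *THI73* (-1.20) and *THI2* (-1.10), all of the zinc and thiamine lists. Without the third KV68 array, 8 were lower, *PET18* (-1.06) being added, and 4 were higher, and the median of the 51 moved from -0.35 to 0.39. The 4 were *YMR317W* (1.73), *HES1* (1.36), *SET4* (1.03, adjusted p = 0.0158) and *YML083C* (1.02), opposite in sign to KV2668 minus KV473 on solid medium and named after their values were seen. *TIR3* was at -1.23 in this pair (SE 0.93, adjusted p = 0.414) and at 0.51 without that array, and *PAU18* was then called higher (1.22, adjusted p = 0.00649). *FDH1*, at -2.05 for KV2668 minus KV473 on solid medium, was at 0.73 in this pair (adjusted p = 0.437). Without that array it was called higher (1.77, adjusted p = 0.000296). *TIR3*, *PAU18* and *FDH1* are not among the 51. Of the 59 higher interactions with a strain difference on solid medium alone, 2 were called higher in KV68, *YLR012C* (1.29) and *YMR084W* (1.16), and *YLR012C* alone without that array. *MIG2* was at -0.30 and *HXT2* at 0.01 there, neither called. Of the 94 higher and 41 lower interactions that came from liquid medium alone, 0 were called between KV68 and KV63 colonies. That count says little, since these were picked for having no called strain difference on solid medium. Only 0.222% of all probe sets were called in each direction in this pair.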

How the data were processed

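The authors hybridised RNA to Affymetrix Yeast Genome 2.0 arrays and deposited log2 values made with RMA (version not given in the sources used here), which corrects background, normalizes the arrays together and summarizes probe sets. The values were used unchanged. Genes came from the platform annotation, with 12 symbols updated through RefSeq's gene table, and 6145 of 7686 probe sets had 1 symbol, 1 had several and 1540 had none. Background was the 95th percentile of 676 *S. pombe* probe sets on each array. Probe sets of *S. cerevisiae* above it on at least 3 of the 12 arrays were tested, 5414 of 5469, of which 115 may detect several genes.

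Contrasts were fitted over 4 groups with limma 3.58.1 (lmFit, then eBayes; R 4.3.3) and adjusted by Benjamini-Hochberg over all tested probe sets, and the script was tested on simulated data. Adjusted p-values are limma's throughout. The calls of KV68 against KV63 used 18 arrays in 6 groups. Replicate arrays within the 4 groups of KV473 and KV2668 correlated at 0.993 to 0.999. Arrays have no read depth, and precision is limited by their number. Alternatives changed the variance estimate, the filter, the normalization, the threshold and the arrays. The genes named are *FLO11*, the 12 highest and 12 lowest called interactions among probe sets specific to 1 gene, up to 4 members of each of 36 lists by absolute interaction, and those named beside small counts. The members and lists were chosen with earlier results of these data known. For a gene with several probe sets, the specific probe set with the largest absolute interaction was taken. Promoter motifs were not analysed here.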

Additional observations from a re-analysis of the deposited data

Results flagged for a closer look

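The response to colony growth differed between KV2668 and KV473 by limma's test of the difference itself for the 24 genes with the highest and lowest called interactions among probe sets specific to 1 gene. The values on the log2 scale were 3.17 for *MIG2*, 2.53 for *PUT1*, 2.47 for *CCP1*, 2.44 for *YBL100W-C*, 2.42 for *MET17*, 2.20 for *PTR2*, 2.15 for *COA2*, 2.13 for *SAM1*, 2.13 for *MCH5*, 2.10 for *YNL234W*, 2.09 for *PHO89* and 2.08 for *HXT4*. They were -3.61 for *YOR387C*, -3.45 for *PLB2*, -3.31 for *TIR3*, -3.18 for *FDH1*, -3.02 for *YPR015C*, -2.90 for *NRG2*, -2.81 for *ZRT1*, -2.81 for *CHA1*, -2.71 for *PAU5*, -2.54 for *TIR2*, -2.53 for *SET4* and -2.51 for *ZPS1*. The calls of *TIR3*, *TIR2* and *SET4* were lost with the variance of all 18 arrays, and the other 21 genes kept theirs in every alternative.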

How the results depend on the processing

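The interaction calls were recomputed under 24 alternatives. The counts of higher and lower calls, 229 and 159, stayed within 1.5 times except with no minimum difference, which gave 1346 higher and 1464 lower at an adjusted p below 0.05. Leaving out each array in turn gave 207 to 271 higher and 143 to 172 lower calls. The variance of all 18 arrays gave 215 and 115, all among the main calls, and 229 and 159 without the third KV68 colony array, an alternative added after the data were seen. The replicate number as a block gave the same 229 and 159 calls. Same-numbered arrays did not all deviate together (18 pairs, r from -0.127 to 0.201, 5 above 0.1), so the numbers were not taken as pairs; 19 of 36 comparisons of an array with another group were best with its own number. Of 121 called genes named, 95 held their call in every alternative. The sign of *FLO11* turned, without a call, to -0.32 after quantile normalization (adjusted p = 0.109), to -0.004 with the chromosomes centred (adjusted p = 0.986) and to -0.069 without KV2668 solid replicate 2 (adjusted p = 0.725), with 0.259 as its highest value when an array was left out, and the cause was not tested. Values near the background, and the 3 arrays per group, limit the small differences.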
